A study of Mus musculus with 6 samples.

Results

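The hnRNP and SR proteins are the RNA-binding proteins that decide which exons of a pre-mRNA are kept, and their transcripts were examined here in splenic germinal centre B cells with and without transgenic Uchl1. The members were chosen by gene symbol: every gene beginning with Hnrnp, every numbered Srsf gene, Tra2a, Tra2b, Ptbp1, Ptbp2, Ptbp3, Pcbp1 and Pcbp2. This gave 36 genes of 18193 measured, of which 19 were hnRNP genes, 12 were SR and TRA2 genes and 5 were PTB and PCBP genes. Each gene was read through the probe set with the highest mean over the 6 arrays, and all 36 had a value because no filter on dim signals was used.

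ImHABCL6/Uchl1 mice (3 arrays) carried transgenic Uchl1, a deubiquitinating enzyme, on top of the ImHABCL6 allele. ImHABCL6 mice (3 arrays) carried that allele alone and were the controls, so the HA-tagged BCL6 driven from an immunoglobulin heavy-chain promoter was shared by all 6 arrays. All mice had received sheep red blood cells, and germinal centre B cells were taken from the spleen with magnetic beads. The promoter of the Uchl1 transgene, the age of the mice and whether each array was 1 animal's RNA are not stated in the labels beyond an n of 3 per genotype, so p-values measure the spread between these arrays, which may be technical. Total RNA was hybridised to Affymetrix mouse expression arrays, and the deposited values were log2 expression levels with array medians between 5.56 and 5.67.

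In a spliceosome, small nuclear ribonucleoproteins recognise the ends of each intron, and regulators bound nearby set how often a weak exon is used. SR proteins bind exonic enhancers through RNA recognition motifs and recruit the spliceosome through an arginine- and serine-rich domain, whereas hnRNP proteins more often coat introns or exonic silencers and oppose inclusion. Many genes of both families control their own level through exons that send the transcript to nonsense-mediated decay. In lymphocytes Hnrnpll is known for repressing the variable exons of Ptprc, which encodes CD45, and Ptbp1 is known to be needed by germinal centre B cells of mice.

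The label of the Uchl1 arrays was checked first. Uchl1 read 5.96, 5.87 and 6.02 in ImHABCL6/Uchl1 arrays, against 5.01, 4.999 and 5.02 in ImHABCL6 arrays, a difference of 0.94 (limma adjusted p = 0.638), so the arrays fell with their labels. The 10 measured germinal centre and B-cell markers averaged 10.58 to 11.05 on the log2 scale in ImHABCL6/Uchl1 arrays and 10.67 to 10.76 in ImHABCL6 arrays. Markers of other cell types were also averaged per array. The T-cell list lay at 4.84 to 5.14 in ImHABCL6/Uchl1 arrays and 4.95 to 5.02 in ImHABCL6 arrays, and the NK-cell list at 4.08 to 4.34 in ImHABCL6/Uchl1 arrays and 4.25 to 4.27 in ImHABCL6 arrays. The dendritic-cell list lay at 5.69 to 6.24 in ImHABCL6/Uchl1 arrays and 5.62 to 6.01 in ImHABCL6 arrays, and the myeloid list at 5.36 to 5.90 in ImHABCL6/Uchl1 arrays and 5.15 to 5.42 in ImHABCL6 arrays. The neutrophil list lay at 5.10 to 5.43 in ImHABCL6/Uchl1 arrays and 5.14 to 6.19 in ImHABCL6 arrays, and the megakaryocyte and platelet list at 7.50 to 8.58 in ImHABCL6/Uchl1 arrays and 7.83 to 8.60 in ImHABCL6 arrays. The array means of all of these lists overlapped between genotypes. Single genes differed in both directions. The 9 myeloid genes ran from -0.33 to 1.14, with 7 higher, and the 8 neutrophil genes from -1.27 to 0.13, with 7 lower, against 49.4% of all genes lower. An unadjusted limma p under 0.05 was reached by 1 gene each of the germinal centre, myeloid and dendritic-cell lists, against 4.94% of all genes, and an adjusted one by 0. Red-cell precursor transcripts were abundant. The 12 measured erythroid markers averaged 9.41, 11.26 and 10.70 in ImHABCL6/Uchl1 arrays and 10.89, 11.46 and 11.90 in ImHABCL6 arrays. On average 12 of 12 read lower in ImHABCL6/Uchl1 arrays, against 49.4% of all genes, with a median log2 difference of -0.99. An unadjusted limma p under 0.05 was reached by 7 of the 12, against 4.94% of all genes, and an adjusted one by 0. In 3 of the 12 all ImHABCL6/Uchl1 arrays lay below all controls, against 5.49% of all genes. In bulk RNA fewer cells of a type and less RNA per cell cannot be told apart.

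Among the 36 members, 4 had groups that did not overlap, as did 9.44% of all genes. They were Hnrnpll, Srsf6 and Tra2b, whose 3 ImHABCL6/Uchl1 arrays all lay below the controls, and Hnrnpul1, whose 3 lay above. The annotation tables held no promoter entry for Hnrnpll, Hnrnpul2 or Ptbp3, and matched the other 33 by symbol. For the remaining 3 of those 4 genes, the 250 bases upstream of the annotated start are shown. They are from RefSeq on build GRCm38.p6, 5′ to 3′ on the gene's strand. These 3 genes were picked by their main probe sets alone. Sets of other members, such as Srsf10, Srsf3 and Hnrnpd, also separated the genotypes, so the choice marks no trait particular to the 3. Capitals mark matches on either strand to 4 motifs: the GC box GGGCGG, the CCAAT box, TTCCCGC as in E2F sites, and TGACGT, which is part of cyclic AMP response elements.
Srsf6, chr2:162931258-162931507, plus strand: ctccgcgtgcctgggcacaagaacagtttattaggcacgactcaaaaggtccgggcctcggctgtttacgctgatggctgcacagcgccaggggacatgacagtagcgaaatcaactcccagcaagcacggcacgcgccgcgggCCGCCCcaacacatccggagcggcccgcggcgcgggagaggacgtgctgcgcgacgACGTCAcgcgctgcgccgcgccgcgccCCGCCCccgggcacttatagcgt
Tra2b, chr16:22266006-22266255, minus strand: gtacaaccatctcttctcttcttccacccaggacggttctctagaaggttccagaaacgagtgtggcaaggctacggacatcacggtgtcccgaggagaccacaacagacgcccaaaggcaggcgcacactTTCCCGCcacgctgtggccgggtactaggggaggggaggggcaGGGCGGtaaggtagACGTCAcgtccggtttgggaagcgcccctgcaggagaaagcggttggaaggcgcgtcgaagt
Hnrnpul1, chr7:25754760-25755009, minus strand: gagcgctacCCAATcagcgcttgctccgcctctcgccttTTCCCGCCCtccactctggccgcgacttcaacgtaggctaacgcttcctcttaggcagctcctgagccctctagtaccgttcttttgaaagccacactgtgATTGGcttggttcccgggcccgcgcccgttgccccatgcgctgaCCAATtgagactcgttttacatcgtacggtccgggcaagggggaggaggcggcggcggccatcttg
The Srsf6 window held 2 GC boxes and 1 TGACGT match, the Tra2b window held 1 GC box, 1 TTCCCGC and 1 TGACGT match, and the Hnrnpul1 window held 3 CCAAT boxes with 1 TTCCCGC match that overlaps 1 GC box. A GC box stood in 25 of the 33 member windows and in 32.9% of all 27025 windows of that length, a CCAAT box in 16 of 33 and 34.5%, TTCCCGC in 6 of 33 and 3.84%, and TGACGT in 8 of 33 and 6.56%. Member windows had a median of 23 CpG dinucleotides, against 6 in all windows, and a median GC content of 63.6%, against 52%. A match describes letters in a window and is not a binding site.

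Hnrnpll stood apart from all other members. Its highest-mean probe set (1425255_s_at) read 7.44, 7.72 and 8.15 in ImHABCL6/Uchl1 arrays, against 8.82, 9.04 and 9.04 in ImHABCL6 arrays. The lowest control therefore lay well above the highest ImHABCL6/Uchl1 array. The means were 7.77 ± 0.36 in ImHABCL6/Uchl1 arrays and 8.97 ± 0.13 in ImHABCL6 arrays (SD, n = 3 each), which is 2.29-fold lower with the transgene. At least a 2-fold lower level was found in 0.89% of all genes.

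A second Hnrnpll probe set (1427144_at), which the choice of 1 probe set per gene left unused, read 6.79, 7.22 and 7.38 in ImHABCL6/Uchl1 arrays, against 8.19, 8.50 and 8.69 in ImHABCL6 arrays. In both Hnrnpll probe sets every ImHABCL6/Uchl1 array lay below every control. The second probe set differed by -1.33 on the log2 scale (95% confidence interval -1.78 to -0.87 in limma over all probe sets), and the first by -1.19 (95% confidence interval -1.64 to -0.75 in limma over all genes). Neither passed the threshold after Benjamini-Hochberg adjustment, with a limma adjusted p of 0.638 over 18193 genes for the first and of 0.551 over 34945 probe sets for the second. For each probe set a two-sided exact permutation test gave p = 0.1, below which a design of this size cannot go.

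The erythroid markers and Hnrnpll are set side by side here. ImHABCL6/Uchl1 replicate 1 had both the lowest Hnrnpll and the lowest erythroid mean, and replicate 2 had an erythroid mean of 11.26, within the controls' 10.89 to 11.90, and an Hnrnpll level of 7.72. Replicate 3 had an erythroid mean of 10.70, below every control, and the highest Hnrnpll of the transgenic group, 8.15. The relation between the 2 measures was not tested. Without replicate 1 the Hnrnpll difference was -1.03, and with the erythroid mean as a covariate it was -0.98. By limma p Hnrnpll ranked 6 of 18193 genes in the main fit and 58 with the covariate. Genes with an unadjusted limma p under 0.05 numbered 898 in the main fit and 2799 with the covariate. Over the 6 fits that each left out 1 array the Hnrnpll difference ranged from -1.39 to -1.03.

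**Figure D1:**
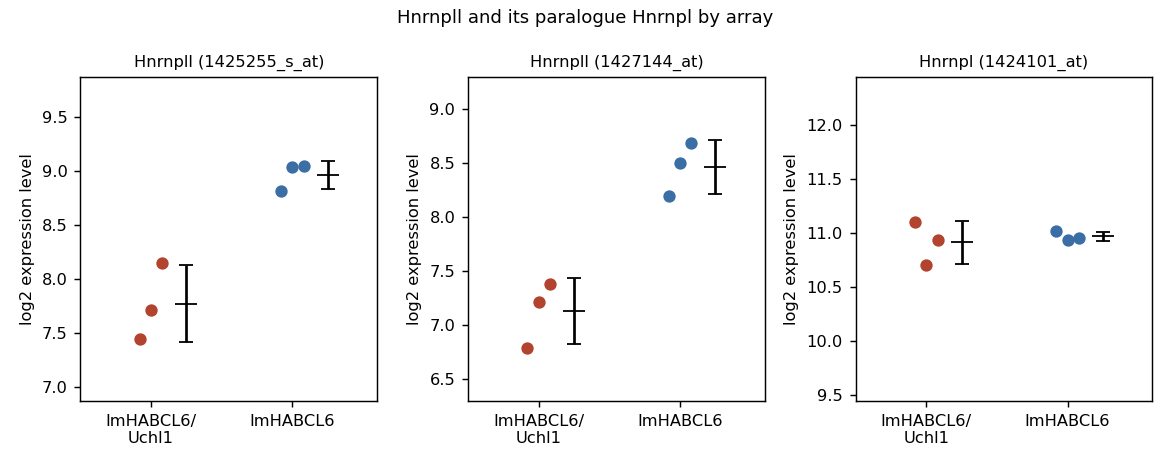
Log2 expression level (vertical axes, each spanning the same 3 log2 units) of both Hnrnpll probe sets and the main Hnrnpl probe set in each array, with ImHABCL6/Uchl1 arrays at left and ImHABCL6 arrays at right; points are arrays and bars give mean and SD (n = 3 each). Both Hnrnpll panels separate the genotypes, the first averaging 7.77 in ImHABCL6/Uchl1 arrays and 8.97 in ImHABCL6 arrays, while Hnrnpl overlaps.

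Hnrnpl, the paralogue of Hnrnpll that also binds CA-rich RNA and the variable exons of Ptprc, overlapped between genotypes. It read 11.11, 10.71 and 10.94 in ImHABCL6/Uchl1 arrays, against 11.02, 10.94 and 10.96 in ImHABCL6 arrays. Its log2 difference of -0.05 had a 95% confidence interval of -0.38 to 0.28 in limma, which does not reach the size of the Hnrnpll difference. The difference between the paralogues' differences was -1.14, and the Hnrnpll minus Hnrnpl values gave p = 0.1 in the exact permutation test.

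Ptprc, the best-known exon target of Hnrnpll, was read by 2 probe sets, whose positions relative to the variable exons are not stated in the labels or the annotation. The brighter one (1422124_a_at) read 13.58, 13.34 and 13.21 in ImHABCL6/Uchl1 arrays, against 13.26, 13.21 and 13.32 in ImHABCL6 arrays. The other (1440165_at) read 9.33, 9.27 and 9.54 in ImHABCL6/Uchl1 arrays, against 8.95, 8.41 and 9.08 in ImHABCL6 arrays. The brighter set overlapped between genotypes and the dimmer one lay higher in every ImHABCL6/Uchl1 array, by 0.57 (SE 0.19, limma adjusted p = 0.988 over all probe sets, exact permutation p = 0.1).

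Hnrnpll is also known to be high in plasma cells, so plasma-cell genes were read beside it. The mean of the 7 measured plasma-cell markers was 9.13, 8.90 and 9.07 in ImHABCL6/Uchl1 arrays, against 9.16, 8.92 and 8.90 in ImHABCL6 arrays, and the groups overlapped. Prdm1, the plasma-cell master repressor, differed by -0.21 (SE 0.41), Irf4 by -0.0023 (SE 0.33), Xbp1, which expands the secretory apparatus, by -0.04 (SE 0.27) and the surface proteoglycan Sdc1 by 0.15 (SE 0.16). Jchain, which joins IgM and IgA polymers, lay higher in every ImHABCL6/Uchl1 array, as did 3.95% of all genes. Its difference of 0.08 was smaller than its SE of 0.12. Ell2, an elongation factor that favours secretory immunoglobulin mRNA, differed by -0.16 (SE 0.15). Tnfrsf17, the remaining plasma-cell marker, had the largest difference of the 7, 0.46, and its groups overlapped. Of the 7 measured genes listed as context for Hnrnpll, Ptprc included, 4 read lower, and 0 passed in limma, either adjusted or at an unadjusted p under 0.05.

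The other 18 hnRNP genes scattered around 0. Of them 9 read lower and 9 higher in ImHABCL6/Uchl1 arrays, against 49.4% of all genes lower, and 12 differed by less than 0.1 on the log2 scale. Their differences ran from -0.25 to 0.19, with a median of -0.01, against 0.0029 over all genes. Over the 9097 brighter genes, those with a mean signal at or above the median gene, the median was -0.06. With Hnrnpll included, 10 of 19 were lower, and single arrays moved this count: it was 15 of 19 (median -0.09) without ImHABCL6/Uchl1 replicate 1 and 5 of 19 (median 0.04) without replicate 2. Of these 18 genes 0 had a limma p under 0.05 even before adjustment, where 4.94% of all genes did, and adjusted over all genes 0 of 18193 genes passed at 0.05.

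Hnrnpul1, an SAF-A-like protein that takes part in transcription and the DNA damage response, was the 1 hnRNP gene besides Hnrnpll whose groups did not overlap in the main probe set. It read 11.24, 11.37 and 11.39 in ImHABCL6/Uchl1 arrays, against 11.22, 11.07 and 11.15 in ImHABCL6 arrays. The gap between the nearest arrays was thin, and the difference was 0.19 (SE 0.12, limma adjusted p = 0.998). All ImHABCL6/Uchl1 arrays lay above all controls in 3.95% of genes and below them in 5.49%, which is the background for the 1 member of 36 above and the 3 of 36 below.

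The G-run binding proteins Hnrnph1 and Hnrnph3 had the most negative hnRNP differences after Hnrnpll, at -0.25 (95% confidence interval -0.67 to 0.16) and -0.24 (-0.71 to 0.24). Hnrnph1 read 12.56, 12.30 and 11.92 in ImHABCL6/Uchl1 arrays, against 12.58, 12.42 and 12.54 in ImHABCL6 arrays, so replicate 3 of the transgenic group was low and replicate 1 was among the controls. Hnrnph3 read 10.10, 9.68 and 9.29 in ImHABCL6/Uchl1 arrays, against 9.89, 9.88 and 10.003 in ImHABCL6 arrays, again with replicate 3 lowest. Without replicate 3 the 2 differences were -0.08 and -0.03. Their relative Hnrnph2 differed by -0.05, and Hnrnpf, which binds the same runs, by 0.07.

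Hnrnpf gave the highest signal of the hnRNP genes, although signals of different probe sets do not rank transcripts. It read 13.23, 13.40 and 13.24 in ImHABCL6/Uchl1 arrays, against 13.16, 13.13 and 13.38 in ImHABCL6 arrays, and the groups overlapped. The classical exon silencers Hnrnpa1 and Hnrnpa2b1 differed by -0.08 (95% confidence interval -0.45 to 0.28) and 0.01 (-0.30 to 0.32). The uridine-tract protein Hnrnpc differed by -0.06, the polycytosine-binding Hnrnpk by 0.03, Hnrnpm by -0.10 and the nuclear scaffold protein Hnrnpu by -0.08. Hnrnpd, also called AUF1 and known for promoting decay of AU-rich mRNAs, differed by 0.14, and its relatives Hnrnpdl and Hnrnpab by 0.11 and -0.04. Hnrnpa0 differed by 0.09, Hnrnpr by 0.08 and Hnrnpul2 by 0.01.

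**Figure D2:**
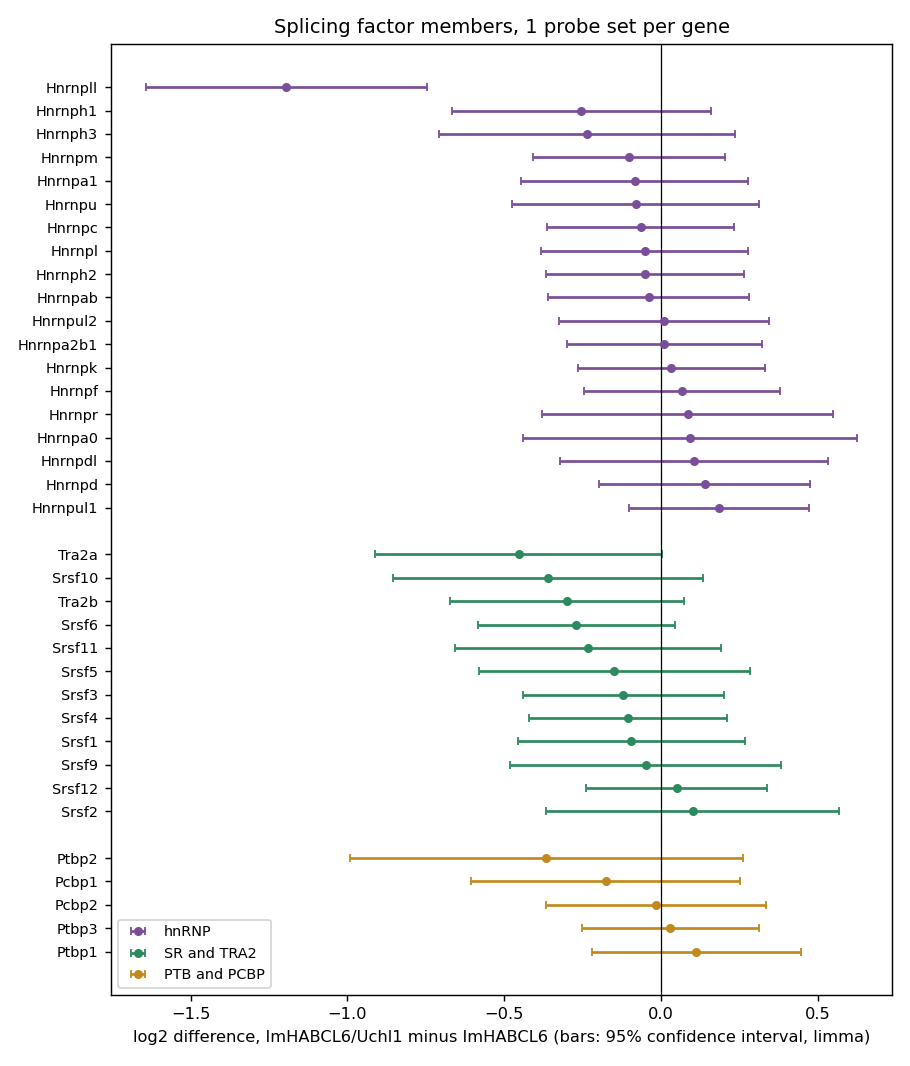
Log2 difference of each of the 36 members (horizontal axis, ImHABCL6/Uchl1 minus ImHABCL6) with its 95% confidence interval from limma, grouped by family and ordered by size. Hnrnpll at -1.19 is the 1 member of 36 whose interval lies wholly below 0. An unadjusted limma p under 0.05, which is the same limit, was reached by 4.94% of all genes. Of the 12 SR and TRA2 points 10 lie left of 0.

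The SR and TRA2 genes leaned lower by small amounts. In ImHABCL6/Uchl1 arrays 10 of 12 read lower, with a median log2 difference of -0.14, against 49.4% of all genes lower and a median of 0.0029. Bright genes as a whole also read lower: the median over the 9097 brighter genes was -0.06. Of the 11 SR and TRA2 genes among these, 10 read lower, with a median of -0.15. Their differences ran from -0.45 for Tra2a to 0.10 for Srsf2. In the main probe sets 0 of 12 reached an unadjusted limma p of 0.05, against 4.94% of all genes. Other sets of Srsf10, Srsf3 and Tra2b did reach it. When all probe sets of a gene were averaged, 9 of 12 read lower and the median was -0.04. The per-array mean deviation of the 12 genes was 0.14, -0.23 and -0.16 in ImHABCL6/Uchl1 arrays, against 0.11, -0.0082 and 0.15 in ImHABCL6 arrays. Replicates 2 and 3 of the transgenic group were thus low while replicate 1 lay at the level of the highest controls, and the groups overlapped. Left out in turn, single arrays gave counts of 9 to 11 lower genes and medians from -0.25 to -0.11. Replicate 1 of the transgenic group also had the lowest erythroid mean, 9.41, and using that mean as a covariate placed 11 of the 12 genes lower, at a median difference of -0.32. With that covariate the other families also had lower medians than in the main fit. They were -0.13 for hnRNP genes and -0.22 for PTB and PCBP genes, against -0.02 over all genes.

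The most negative main probe sets were those of the 2 TRA2 genes, Srsf10 and Srsf6. Averaged over all their probe sets, Tra2a, Tra2b and Srsf6 differed by -0.0017, -0.04 and 0.0024. For the TRA2 genes these averages give dim sets the same weight as bright ones. The Tra2b sets 1446496_at and 1444509_at averaged 5.54 and 5.28 in ImHABCL6/Uchl1 arrays and 5.31 and 5.18 in ImHABCL6 arrays. Tra2a, a sequence-specific activator of exons with GAA-rich enhancers, read 10.86, 10.38 and 10.24 in ImHABCL6/Uchl1 arrays, against 10.81, 10.82 and 11.21 in ImHABCL6 arrays. Replicate 1 lay among the controls, and the difference was -0.45 (SE 0.20, limma adjusted p = 0.998). Tra2b, its close relative, read 12.58, 12.03 and 12.36 in ImHABCL6/Uchl1 arrays, against 12.61, 12.61 and 12.64 in ImHABCL6 arrays. The controls were nearly identical and each ImHABCL6/Uchl1 array lay below them, for a difference of -0.30 (SE 0.16), which was -0.16 without replicate 2 of the transgenic group.

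Srsf6, an SR protein that like its relatives Srsf4 and Srsf5 carries a pair of RNA recognition motifs, read 11.91, 11.68 and 11.61 in ImHABCL6/Uchl1 arrays, against 12.04, 11.92 and 12.05 in ImHABCL6 arrays. Its groups touched without overlapping, and the difference was -0.27 (SE 0.14). Srsf4 and Srsf5 differed by -0.11 and -0.15. Srsf10, which turns from an activator into a general repressor of splicing when it loses its phosphates, read 10.95, 10.34 and 10.33 in ImHABCL6/Uchl1 arrays, against 10.75, 10.76 and 11.20 in ImHABCL6 arrays. Replicate 1 lay between the controls, and the difference of -0.36 (SE 0.21) was -0.57 without that array and -0.21 without control replicate 3.

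The remaining SR genes were closer to 0. Srsf1, the founding SR protein, gave the highest signal of the family and read 13.08, 12.80 and 12.79 in ImHABCL6/Uchl1 arrays, against 12.96, 12.80 and 13.20 in ImHABCL6 arrays, a difference of -0.09 (95% confidence interval -0.46 to 0.27). Srsf3 differed by -0.12, Srsf11 by -0.23 and Srsf9 by -0.05, whereas Srsf2, also known as SC35, differed by 0.10 (-0.37 to 0.57). Srsf12 was read at 2.63 to 2.81 in ImHABCL6/Uchl1 arrays and at 2.59 to 2.70 in ImHABCL6 arrays, near the lowest value of the whole table, 2.16, so its difference of 0.05 carries little information.

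**Figure D3:**
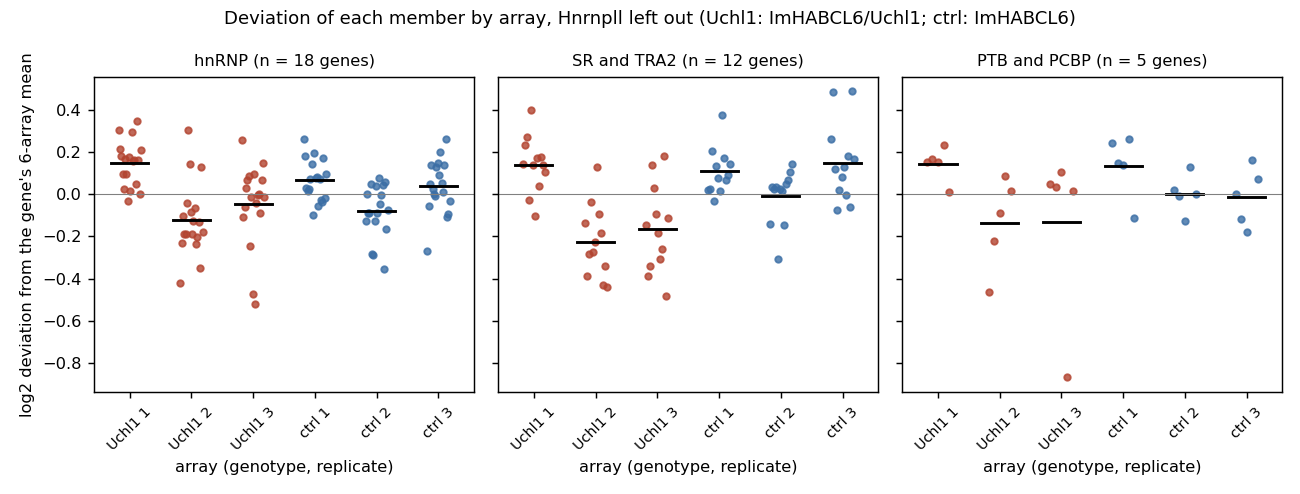
Deviation of each member from its own mean over the 6 arrays (vertical axis, log2), by array, with ImHABCL6/Uchl1 arrays in red at left and ImHABCL6 arrays in blue at right; black bars are the mean over the genes of a family, and Hnrnpll is left out. In the SR and TRA2 panel the mean is low in ImHABCL6/Uchl1 replicates 2 (-0.23) and 3 (-0.16) and high in replicate 1 (0.14).

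Single arrays of the transgenic group stood at both ends of the range across the 36 members. ImHABCL6/Uchl1 replicate 1 held the highest value for 14 members, whereas replicate 2 held the lowest for 16 and replicate 3 for 10. Control replicate 3 held the highest for 10. The count of members lower in ImHABCL6/Uchl1 arrays, 23 of 36, therefore depended on which arrays were used, and was 29 without ImHABCL6/Uchl1 replicate 1 and 15 without replicate 2. After the arrays were centred on their medians it was 26.

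The polypyrimidine tract and poly(C) binding proteins showed no common direction. Ptbp1, the general repressor of weak exons, read 11.86, 11.62 and 11.81 in ImHABCL6/Uchl1 arrays, against 11.84, 11.58 and 11.53 in ImHABCL6 arrays, a difference of 0.11 (95% confidence interval -0.22 to 0.45). Ptbp3, the paralogue common in blood cells, read 11.72, 11.73 and 11.73 in ImHABCL6/Uchl1 arrays, against 11.60, 11.71 and 11.78 in ImHABCL6 arrays, a difference of 0.03. Both overlapped between genotypes.

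Ptbp2, whose transcript Ptbp1 is known to push toward decay by skipping an exon, read 8.38, 8.24 and 7.29 in ImHABCL6/Uchl1 arrays, against 8.41, 8.28 and 8.32 in ImHABCL6 arrays. One array, ImHABCL6/Uchl1 replicate 3, gave almost all of the difference of -0.37 (95% confidence interval -0.99 to 0.26), which was -0.02 without it. The Ptbp2 minus Ptbp1 values differed by -0.48 between genotypes (two-sided exact permutation p = 0.2). Pcbp2 read 13.02, 12.63 and 12.88 in ImHABCL6/Uchl1 arrays, against 13.001, 12.84 and 12.74 in ImHABCL6 arrays, and Pcbp1 differed by -0.18 (-0.61 to 0.25), low mainly in ImHABCL6/Uchl1 replicate 2 at 12.26.

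Most splicing factor genes had several probe sets, and these often differed in sign. The 36 genes had 114 probe sets, 62 lower and 52 higher in ImHABCL6/Uchl1 arrays, and the share of all 34945 probe sets that read lower was 48.1%. Of the 26 genes with more than 1 probe set, 4 had all of them lower (Hnrnpll, Hnrnpa1, Srsf3 and Srsf10), 4 had all higher (Hnrnpd, Hnrnpk, Ptbp1 and Ptbp3) and 18 had both signs. An unadjusted limma p under 0.05 was reached by 8 of the 114, against 4.91% of all probe sets, and an adjusted one by 0. The 8 were sets of Hnrnpll, Hnrnpd, Srsf3, Srsf10 and Tra2b. Groups did not overlap in 8 lower probe sets (5.13% of all probe sets) and in 4 higher ones (4.4%).

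Srsf10 read lower in each of its probe sets, as Hnrnpll did. These 4 sets differed by -0.36, -0.42, -0.52 and -0.55, and the set at -0.52 (1418527_a_at) read 9.37, 8.72 and 8.95 in ImHABCL6/Uchl1 arrays, against 9.39, 9.65 and 9.56 in ImHABCL6 arrays. That set separated the genotypes by a thin margin at replicate 1. Probe sets of 1 gene share the same RNA and are not replicates. Srsf3, the smallest SR protein and one that curbs its own level through a decay exon, had 6 probe sets from -0.41 to -0.09.

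Tra2a, Tra2b and Srsf6 were the opposite case. The main Tra2a set differed by -0.45, but 4 of its other 5 sets differed by 0.03 to 0.18. For Tra2b 2 sets differed by -0.30 and -0.50 and 3 by 0.10 to 0.29, and for Srsf6 the other 3 sets differed by 0.0035 to 0.23. The 2 lower Tra2b sets were its brightest, and both separated the genotypes. The set at -0.50 (1419543_a_at) read 11.08, 10.40 and 10.89 in ImHABCL6/Uchl1 arrays, against 11.20, 11.41 and 11.24 in ImHABCL6 arrays. The brightest of the opposite Tra2b sets (1441466_at) read 9.19, 9.87 and 9.86 in ImHABCL6/Uchl1 arrays, against 9.30, 9.16 and 9.61 in ImHABCL6 arrays. Which transcript forms these sets read is not stated in the annotation.

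Sets of opposite sign that lay over 0.3 from the main one were also found in Hnrnpa2b1 (-0.31), Hnrnpab (0.32), Hnrnpc (0.25), Hnrnpdl (-0.41 and -0.37), Hnrnpf (-0.28), Hnrnph1 (0.05), Srsf11 (0.31 and 0.20) and Ptbp2 (0.13). The Hnrnpab set averaged 7.36 in ImHABCL6/Uchl1 arrays and 7.04 in ImHABCL6 arrays, the Hnrnpc set averaged 4.86 in ImHABCL6/Uchl1 arrays and 4.62 in ImHABCL6 arrays, and the Ptbp2 set 4.87 in ImHABCL6/Uchl1 arrays and 4.73 in ImHABCL6 arrays, all dimmer than the main sets. A set of Ptbp1 (1450443_at) read 5.49, 5.55 and 5.55 in ImHABCL6/Uchl1 arrays, against 5.16, 5.37 and 5.25 in ImHABCL6 arrays, and a set of Hnrnpd (1458273_at) read 4.06, 3.73 and 3.94 in ImHABCL6/Uchl1 arrays, against 3.46, 3.53 and 3.71 in ImHABCL6 arrays. Both separated the genotypes upward from the dim end of the scale.

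**Figure D4:**
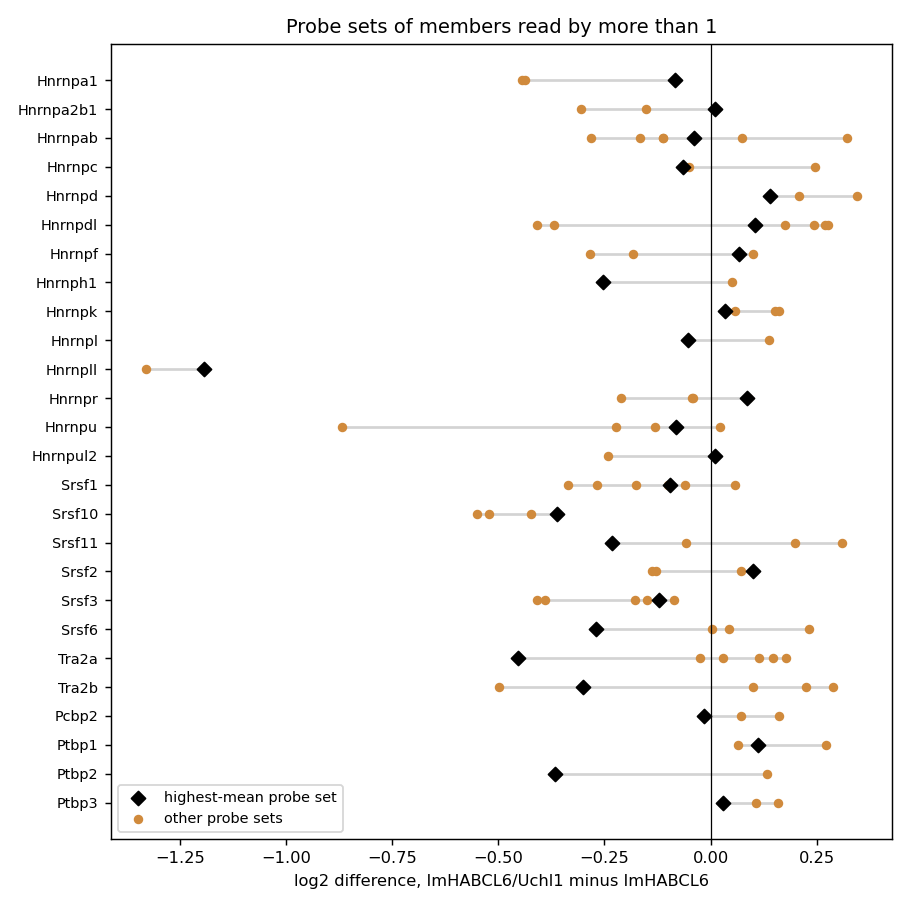
Log2 difference (horizontal axis, ImHABCL6/Uchl1 minus ImHABCL6) of every probe set of the 26 members with more than 1; the diamond is the set with the highest mean and circles are the others. The Hnrnpll sets lie together at -1.19 and -1.33, the 4 Srsf10 sets lie between -0.55 and -0.36, and the Tra2b sets span 0.

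A group of member probe sets, of hnRNP genes and Ptbp2, was low in 1 array. In ImHABCL6/Uchl1 replicate 3, 7 of the 114 member probe sets (6.14%) lay more than 0.5 below every other array, against 1.14% of all probe sets. They belonged to Hnrnpu, Hnrnpdl (2 sets), Hnrnpa1 (2 sets), Hnrnpa2b1 and Ptbp2, and each of these 5 genes also had at least 1 other set that did not stand alone at the low end there. The Hnrnpu set (1434390_at) read 7.71, 7.83 and 5.67 in ImHABCL6/Uchl1 arrays, against 8.11, 7.56 and 8.14 in ImHABCL6 arrays, while the main Hnrnpu set read 12.50, 11.99 and 12.41 in ImHABCL6/Uchl1 arrays, against 12.51, 12.40 and 12.23 in ImHABCL6 arrays. The SR protein kinase Clk1 was low in the same array, as described with the kinases. ImHABCL6/Uchl1 replicate 2 stood alone at the low end in 6 sets (5.26%, against 3.47% of all probe sets), of Hnrnpab, Hnrnpf and Srsf1. The 0.5 limit was set after these values were seen.

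Other parts of the splicing machinery gave similarly small differences. Of 38 measured core spliceosome genes 27 read lower, with a median of -0.08. Of 40 other splicing regulators 26 did (median -0.06), and of 12 nonsense-mediated decay genes 9 did (median -0.09). The share of all genes that read lower was 49.4%. The median over the 9097 brighter genes was -0.06, so the medians of these lists were close to that of bright genes in general. Groups did not overlap for the Prp19-complex subunit Bcas2 (-0.21, SE 0.12), the SF3b subunit Sf3b4 (0.18, SE 0.12) and 3 of the 40 regulators, among them Tial1 (-0.34, SE 0.15) and Luc7l (-0.25, SE 0.13), against 9.44% of all genes, so these counts are not above the background. Prpf3, a protein of the U4/U6 particle, differed by -0.31, Cdc5l of the Prp19 complex by -0.28, the hnRNP C-like Raly by -0.30, Zfp638 by -0.37, the decay helicase Upf1 by -0.33 and its partner Upf2 by -0.21. The exon junction proteins Rbm8a and Casc3 differed by -0.15 and -0.12. With limma 0 of the genes on these lists passed adjusted, and 0 at an unadjusted p under 0.05, against 4.94% of all genes.

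Among the regulators of these proteins, 3 kinases of the CLK family, which phosphorylate SR proteins, read lower by more than any member but Hnrnpll. Of 16 measured kinases, phosphatases and importers 10 read lower, with a median of -0.08. Of all genes 49.4% read lower, and the median over the 9097 brighter genes was -0.06. Clk3 read 9.06, 9.40 and 8.83 in ImHABCL6/Uchl1 arrays, against 9.26, 9.77 and 10.02 in ImHABCL6 arrays, a difference of -0.59 (SE 0.23, limma adjusted p = 0.983), and was the 1 gene of the 16 with an unadjusted limma p under 0.05, near the 4.94% of all genes. Its groups overlapped. Clk1 read 11.50, 11.35 and 9.87 in ImHABCL6/Uchl1 arrays, against 11.47, 11.36 and 11.68 in ImHABCL6 arrays, so that its difference of -0.60 (SE 0.39) lay in replicate 3. Clk4 also was lowest there, at 7.97, with a difference of -0.48, and Dyrk1a differed by -0.19.

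**Figure D5:**
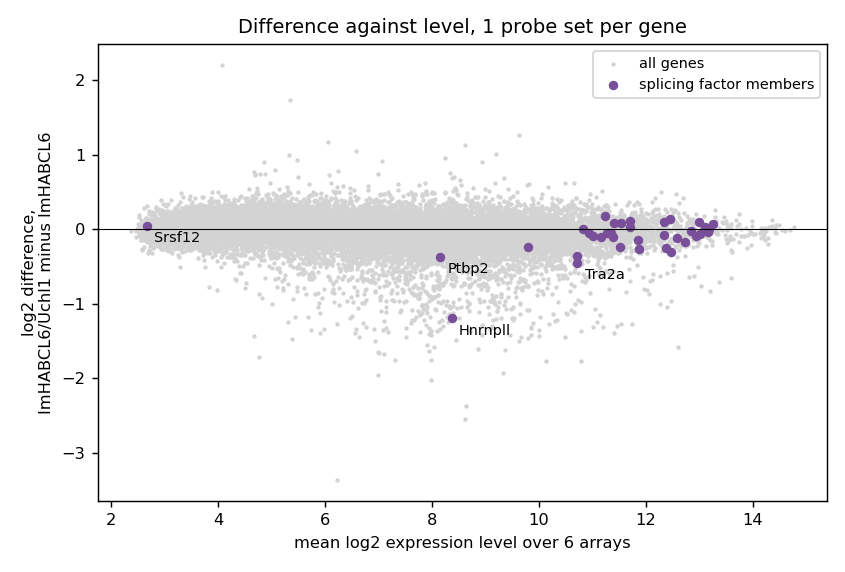
Log2 difference (vertical axis, ImHABCL6/Uchl1 minus ImHABCL6) against the mean log2 level over 6 arrays (horizontal axis) for 18193 genes in grey and the 36 members in purple. Most members lie at high signal close to 0, Srsf12 lies at the dim end, and Hnrnpll lies at -1.19 among the 0.89% of genes at least 2-fold lower.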

How the data were processed

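The submitters' processing notes name RMA and Partek without versions or settings, and no genome build is given in the sources used here. The deposited log2 values, 1 per probe set and array, ran from 2.16 to 15.14. RMA compresses differences of dim probe sets, and no detection calls were used here. Of 45101 probe sets 34945 had 1 gene symbol in GEO's platform annotation and 932 had several, among them 7 naming hnRNP genes, which were left out. Symbols were checked through Entrez identifiers against RefSeq (GRCm38.p6), which 18032 of 18193 genes matched.

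Differences were tested in limma 3.58.1 (R 4.3.3, lmFit and eBayes, both tails), p-values were adjusted by Benjamini-Hochberg across the 18193 genes at 0.05, and single genes were also given exact permutation tests. The steps were tested on simulated data. The members, the gene lists and the alternatives were chosen with earlier results of these data known. Every array value is given for Hnrnpll, Hnrnpl, the Ptbp genes, members with groups that do not overlap and the highest signal of each family. From each list of splicing genes the 4 genes of smallest p are named. All 7 measured genes are named for the Hnrnpll context list and all 7 for the plasma-cell markers. Array values of Hnrnph1, Hnrnph3, Tra2a, Srsf10, Clk1, Clk3, Ptprc and of further probe sets were added after they were seen. Alternatives were other probe set choices, a dim-gene filter, 3 normalizations, variance models, array weights, a replicate block, an erythroid covariate, all probe sets, a threshold of 0.10 and leaving out each array. Figures were drawn with matplotlib 3.10.9.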

Additional observations from a re-analysis of the deposited data

How the results depend on the processing

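Under 19 alternatives the Hnrnpll difference kept its sign, from -1.39 to -0.95, and did not pass the threshold, with limma adjusted p from 0.145 to 0.9998. Its rank by limma p moved from 6 in the main fit to 3 without dim genes. It was 22 under quantile normalization, 23 under cyclic loess and 58 with the erythroid covariate. No gene passed under any of 20 alternatives. Replicate numbers were not taken as pairs, since the deviations of equally numbered arrays correlated at 0.43, 0.19 and -0.26. With the replicate block Hnrnpll stayed at -1.19 (limma adjusted p = 0.262), and the block changed no other call and left 23 of 36 members lower. Leaving out each array gave 15 to 29 lower members, the lowest without ImHABCL6/Uchl1 replicate 2, and the other alternatives gave 19 (quantile normalization, array weights) to 30 (erythroid covariate). Beside Hnrnpll, 11 of 35 members kept their sign under every alternative run and 24 did not. Averaging all probe sets turned the sign of 10 members, and without suffixed probe sets Tra2b was at 0.29. The erythroid covariate put the SR and TRA2 median at -0.32, the hnRNP median at -0.13 and the PTB and PCBP median at -0.22, and the cause was not tested. Array weights put Ptbp2 at -0.83. The weights were 0.51, 0.30 and 3.30 for ImHABCL6/Uchl1 replicates 1, 2 and 3, and replicate 3 was the array with low Ptbp2. Without suffixed probe sets Srsf5 and Hnrnpm, and without dim genes Srsf12, had no value. Testing all probe sets gave no count of members. With 3 arrays in each group, precision is limited by that number.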

Other observations

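The genes Hnrnpa3 and Hnrnpa1 are also read by probe sets that share their annotation with pseudogenes or predicted genes, and these were used in no comparison above. The 4 sets assigned to Hnrnpa3 and Gm6793 differed by 0.06, -0.08, -0.04 and -0.01 on the log2 scale (ImHABCL6/Uchl1 minus ImHABCL6), and the brightest (1428262_s_at) read 13.02, 12.83 and 12.94 in ImHABCL6/Uchl1 arrays, against 12.94, 12.80 and 12.87 in ImHABCL6 arrays. The 3 sets assigned to Hnrnpa1 and its near copies differed by 0.0027, -0.10 and -0.18.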
